A study of Homo sapiens with 6 samples.

Results

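Antisense transcripts are RNAs that an annotation places on the strand opposite to another gene. The ones described here are the 231 of the 25838 genes in the deposited table that carry the biotype antisense and had at least 300 counts summed over the 6 libraries, leaving out chromosome Y and the gene TSIX. A further 2486 antisense genes lay under that limit. Each of the 231 was set beside the protein-coding gene that overlaps it on the opposite strand, called its sense partner here, and where several overlapped, the one with the longest overlap was taken. The libraries came from 2 cell lines of childhood B-cell acute lymphoblastic leukaemia, with 3 libraries of Sup-PR and 3 of Sup-B15. Sup-B15 is the parental line, which is sensitive to prednisolone, and Sup-PR is the prednisolone-resistant sub-clone that was derived from it. Sup-PR had acquired its resistance under selective pressure when it was derived. The paper describes no drug treatment of the cultures from which RNA was taken. The comparison therefore asks how antisense RNA differs between the lines in culture, not how it responds to a treatment. There was 1 resistant sub-clone of 1 parental line, so resistance and any other difference between the lines cannot be told apart. Whether the libraries of a line came from separate cultures is not stated in the labels, and the p-values reflect only the spread among these libraries, part of which may be technical.

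Much of the genome around active genes is transcribed from both strands. Many antisense RNAs start close to the promoter of their sense partner or run into it from its far end, and a large share of them are trimmed or destroyed in the nucleus by the RNA exosome and its helicase adaptors. Some are stable, spliced RNAs with functions of their own, such as CDKN2B-AS1, also known as ANRIL, which is known for recruiting Polycomb proteins to the CDKN2A and CDKN2B genes, and HOTAIRM1, which is known from myeloid differentiation.

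The libraries held 16966569 to 26603422 counts, and all 231 antisense transcripts had counts in every library. They were low in level, with a median of 589 counts over the 6 libraries (range 303 to 18521) and a median of 2.11 FPKM (range 0.182 to 61.9), the length-scaled unit that the authors deposited beside the counts. The members nearest to the limit were AC073073.2, AC005329.1 and AC062029.1 with 303, 304 and 307 counts, and the antisense genes just outside it were AL118516.1 and ABALON with 297 counts each and AC003681.1 with 296. Of the 231, 86 carry AS in a name taken from another gene and 119 carry only a clone name. The lines were checked against cell type markers. All 11 markers of precursor B cells were in the table, with a summed level of 6760 to 7350 CPM in Sup-PR and 8460 to 9410 CPM in Sup-B15, where CPM is the count scaled to the normalized library size. RAG1 and MME were among the markers called lower in Sup-PR. The myeloid markers summed to 4.69 to 7.28 CPM in Sup-PR and 6.59 to 10.6 CPM in Sup-B15, and the summed levels of the T cell, NK cell and stromal markers did not pass 0.401 CPM in any library. In bulk RNA, fewer cells with a transcript and less of it per cell cannot be told apart.

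A partner was found for 199 of the 231 antisense transcripts, with 1 overlapping protein-coding gene for 161 of them and several for 38, and 32 had none. The 199 fell into 4 arrangements. In 74 the starts of the genes overlapped (head to head), in 62 the ends did (tail to tail), 48 antisense genes lay wholly inside the partner, and 15 extended beyond the partner on both sides. Exons of the antisense transcript covered exons of the partner over a median of 8.41% of the antisense exon length and introns of the partner over a median of 28.3%, and 39 of the 199 shared no exon base with the partner. The paper names a NEBNext Ultra RNA kit for the libraries and describes no strand-specific step. Whether reads were counted by strand is not given in the sources used here. Reads from a transcript and from its partner can therefore not be told apart where they overlap, and calls on the 2 strands are calls on the annotated genes. The bases concerned differed widely. In 71 of the 199 over 80% of the antisense exon bases lay within the span of the partner, introns included. In 68 under 20% did, and in 4 of these none. In some head-to-head pairs the genes share exon bases over such a short stretch that it can be shown whole, here for 2 pairs on GRCh38 with the exons of GENCODE release 29 and on the strand of the antisense transcript, in capitals because all of it is shared. FLJ46906 meets NHSL1 at chr6:138692548-138692571 and AL031733.2 meets RCSD1 at chr1:167630415-167630429.
FLJ46906: CGGTGCGGTGGCCCAGCGCGGCCG
AL031733.2: CTCCATGTCCTTCAG

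Antisense transcripts were lower in Sup-PR far more often than they were higher. A gene was called changed at a Benjamini-Hochberg adjusted p under 0.05 over the 14869 genes tested with edgeR's quasi-likelihood test and a fold change over 1.5, and all 231 antisense transcripts were among the genes tested. Of the 231, 6 were higher in Sup-PR (2.6%), 63 were lower (27.3%) and 162 were not called. Over all genes tested, 7.53% were called higher and 15.4% lower. Among protein-coding genes with at least 300 counts the shares were 7.33% and 10.4%. Above the same minimum, antisense transcripts were thus called lower at a larger share than protein-coding genes and called higher at a smaller one. A shared minimum does not match the depth of the classes, since the 231 had a median of 589 counts. Of the protein-coding genes tested at any depth, 13.9% were called lower, so those under the limit were called lower more often. The part of depth in the difference between the classes was not tested. The median log2 fold change of the 231 was -0.29, against -0.01 for all genes tested and 0.05 for protein-coding genes with at least 300 counts, and 167 of the 231 (72.3%) lay below 0, against 51.0% of all genes. In 99 of the antisense transcripts every Sup-PR library lay below every Sup-B15 library, and in 22 every Sup-PR library lay above, where the background over all genes was 30.3% lower and 30.8% higher. Of the 69 called, 64 showed no overlap between the lines.

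**Figure D1:**
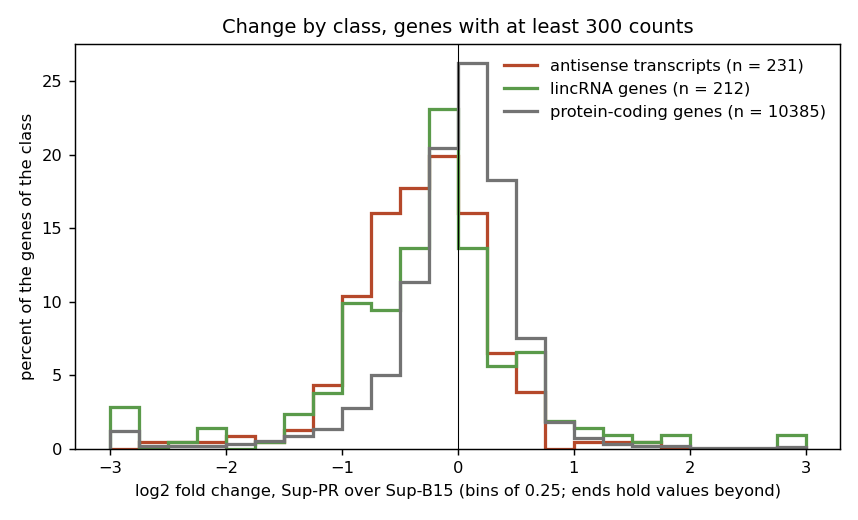
Share of genes (percent of the class, vertical axis) by log2 fold change of Sup-PR over Sup-B15 in bins of 0.25 (horizontal axis), for the 231 antisense transcripts, 212 lincRNA genes and 10385 protein-coding genes with at least 300 counts, the outermost bins also holding values beyond the axis. The antisense transcripts peak left of the protein-coding genes, with medians of -0.29 and 0.05.

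Other RNAs that do not encode protein moved with them. Of the 212 lincRNA genes with at least 300 counts, 26.4% were called lower and 11.3% higher (median log2 fold change -0.20), and of the 30 sense intronic genes of that depth, which lie in introns on the strand of their host, 23.3% were called lower and 3.33% higher. The lower share was therefore not particular to the antisense class, and the antisense transcripts were called higher at a smaller share than lincRNA genes, a difference that was not tested. The whole libraries differed in the same sense. The antisense transcripts took 0.182% to 0.201% of the counts in Sup-PR and 0.235% to 0.249% in Sup-B15, sense intronic genes 0.0314% to 0.0363% in Sup-PR and 0.0418% to 0.0443% in Sup-B15, and lincRNA genes 0.305% to 0.325% in Sup-PR and 0.394% to 0.420% in Sup-B15. In Sup-PR 20681 to 21148 genes had at least 1 count, against 21924 to 22856 in Sup-B15. Reads of unspliced RNA fall into the introns where many antisense exons lie, and the part of unspliced RNA and of rare transcripts in general in the antisense result was not tested. Antisense transcripts that share no exon base with the partner were called lower in 11 of 39 cases and higher in 1, and those that share exon bases in 43 of 160 cases and higher in 3. This split is by exons alone and does not set reads from partner introns apart. With under 20% of the exon bases in the partner's span, introns included, 14 of 68 were called lower and 2 higher (median log2 fold change -0.20). With 20% to 80% it was 19 of 60 lower and 1 higher (-0.38), and with over 80% 21 of 71 lower and 1 higher (-0.34). Over all genes tested, 15.4% were called lower, and the difference between these groups was not tested. Only 4 antisense transcripts with a partner had no exon base within its span.

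The 6 antisense transcripts that were higher in Sup-PR are few enough to name. HSPC324 (ENSG00000228401, GRCh38 chr9:136648610-136660421, minus strand) had 7.74, 7.69 and 7.07 CPM in Sup-PR against 2.41, 2.18 and 2.63 CPM in Sup-B15 (log2 fold change 1.65 ± 0.15, SE, adjusted p = 1.08e-06 by edgeR). All Sup-PR libraries lay well above those of Sup-B15. Its partner EGFL7, a secreted protein known from endothelium, which HSPC324 overlaps head to head without sharing an exon base, had 143, 147 and 145 CPM in Sup-PR against 81.5, 85.8 and 97.9 CPM in Sup-B15 (0.72 ± 0.06, adjusted p = 6.7e-07). HOTAIRM1 had 6.13, 5.74 and 5.69 CPM in Sup-PR against 2.86, 2.9 and 2.84 CPM in Sup-B15 (1.02 ± 0.15, adjusted p = 6.87e-05), again with every Sup-PR library above those of Sup-B15.

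KTN1-AS1 (ENSG00000186615, chr14:55499278-55580110, minus strand) had 3.42, 2.82 and 4.61 CPM in Sup-PR against 1.43, 1.56 and 1.53 CPM in Sup-B15 (1.26 ± 0.23, adjusted p = 0.000438 by edgeR), while its partner KTN1, which encodes kinectin of the endoplasmic reticulum membrane, averaged 179 ± 5.7 CPM in Sup-PR and 158 ± 5.15 CPM in Sup-B15 (SD, n = 3 each, log2 fold change 0.18). KTN1-AS1 was the only antisense transcript called higher with a tested partner that was not called. GAS6-AS1 had 14.6, 13.4 and 11.4 CPM in Sup-PR against 7.67, 8.52 and 7.31 CPM in Sup-B15 (0.73 ± 0.12, adjusted p = 0.000151), and stood above its partner per length (378% of its FPKM in Sup-PR and 352% in Sup-B15). That partner, GAS6, the ligand of the TAM receptor kinases, averaged 2.96 ± 0.644 CPM in Sup-PR and 1.97 ± 0.452 CPM in Sup-B15 (0.62 ± 0.25, adjusted p = 0.0491). The call on GAS6 was lost without Sup-PR replicate 1 or 2 or Sup-B15 replicate 2 (adjusted p = 0.0846, 0.19 and 0.217). AC097461.1 and Z95115.1 have no protein-coding partner, and averaged 3.88 ± 0.729 and 3.44 ± 0.679 CPM in Sup-PR against 2.36 ± 0.384 and 2.12 ± 0.634 CPM in Sup-B15 (log2 fold changes 0.74 and 0.70, adjusted p = 0.00865 and 0.0238). AC097461.1 was not called without Sup-B15 replicate 2 (adjusted p = 0.055), and Z95115.1 was not called without Sup-PR replicate 1, Sup-B15 replicate 1 or Sup-B15 replicate 2 (adjusted p = 0.0809, 0.0851 and 0.0998).

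The antisense transcripts with the largest falls among those called reached further from 0 than the rises. AL008729.1 (ENSG00000215022, chr6:13264861-13295586, minus strand) had 1.31, 0.695 and 0.537 CPM in Sup-PR against 5.96, 6.09 and 4.63 CPM in Sup-B15 (-2.74 ± 0.27, adjusted p = 1.62e-06 by edgeR). It lies tail to tail with PHACTR1, a protein that binds actin and protein phosphatase 1, which had 9.29, 10 and 8.02 CPM in Sup-PR against 35.7, 35.6 and 39 CPM in Sup-B15 (-2.01 ± 0.09, adjusted p = 1.11e-09). Transcripts of both strands were lower in Sup-PR in every library, and their ratio was not called (log2 change -0.66, adjusted p = 0.0718 by limma), although it was without Sup-PR replicate 1 (-0.97, adjusted p = 0.00444). AC136475.3 and LINC02592, which have no partner, had 3.37, 2.26 and 1.43 CPM and 1.61, 1.22 and 1.34 CPM in Sup-PR, against 12.5, 12.2 and 12.2 CPM and 4.7, 4.68 and 5.26 CPM in Sup-B15 (-2.40 ± 0.20 and -1.81 ± 0.19). ADARB2-AS1 lies within introns of ADARB2, a member of the adenosine deaminase family for which no editing activity is known, and had 0.753, 0.522 and 1.57 CPM in Sup-PR against 3.26, 4.35 and 3.63 CPM in Sup-B15 (-1.99 ± 0.31, adjusted p = 0.000115). ADARB2 itself was too low to be tested, with a mean of 0.0167 CPM in Sup-PR and 0.466 CPM in Sup-B15.

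AL357060.1 (ENSG00000237499, chr6:137823673-137868233, minus strand) gathered more counts than these. It had 8.89, 10.1 and 11.5 CPM in Sup-PR against 42.9, 44.3 and 45.2 CPM in Sup-B15 (-2.11 ± 0.09, adjusted p = 4.55e-10 by edgeR), so the lines were far apart and the libraries of each line close together. Its head-to-head partner TNFAIP3 encodes A20, the ubiquitin-editing inhibitor of NF-kB signalling, and had 174, 168 and 167 CPM in Sup-PR against 256, 258 and 245 CPM in Sup-B15 (-0.58 ± 0.05, adjusted p = 3.4e-07). TNFAIP3 fell just short of the 1.5-fold limit, and passed it without Sup-PR replicate 1 or Sup-B15 replicate 3 (-0.60 and -0.61). The antisense transcript stood at 7.42% of the FPKM of TNFAIP3 in Sup-PR and at 21.5% in Sup-B15. C9orf139, which surrounds FUT7, had 13.3, 11.5 and 12.1 CPM in Sup-PR against 36.3, 41 and 36.6 CPM in Sup-B15 (-1.63 ± 0.09, adjusted p = 3.86e-09), and FUT7, the fucosyltransferase that completes selectin ligands on leukocytes, had 34, 31.1 and 26.8 CPM in Sup-PR against 59, 58.7 and 57.9 CPM in Sup-B15 (-0.94 ± 0.08, adjusted p = 3.6e-07). AC007731.1 averaged 2.47 ± 0.455 CPM in Sup-PR and 6.95 ± 0.652 CPM in Sup-B15 (adjusted p = 8.07e-06), beside USP41 with 16.7 ± 3.3 CPM in Sup-PR and 43.5 ± 1.75 CPM in Sup-B15 (-1.37 ± 0.11). USP41 is a near copy of the deubiquitinase gene USP18, and how reads were divided between such copies is not known, so its level is uncertain. SH3BP5-AS1 averaged 2.11 ± 0.575 CPM in Sup-PR and 5.72 ± 1.13 CPM in Sup-B15 (-1.45 ± 0.22), beside SH3BP5, which encodes a protein that binds the kinase BTK, with 3.77 ± 0.792 CPM in Sup-PR and 16.2 ± 1.4 CPM in Sup-B15 (-2.10 ± 0.14).

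**Figure D2:**
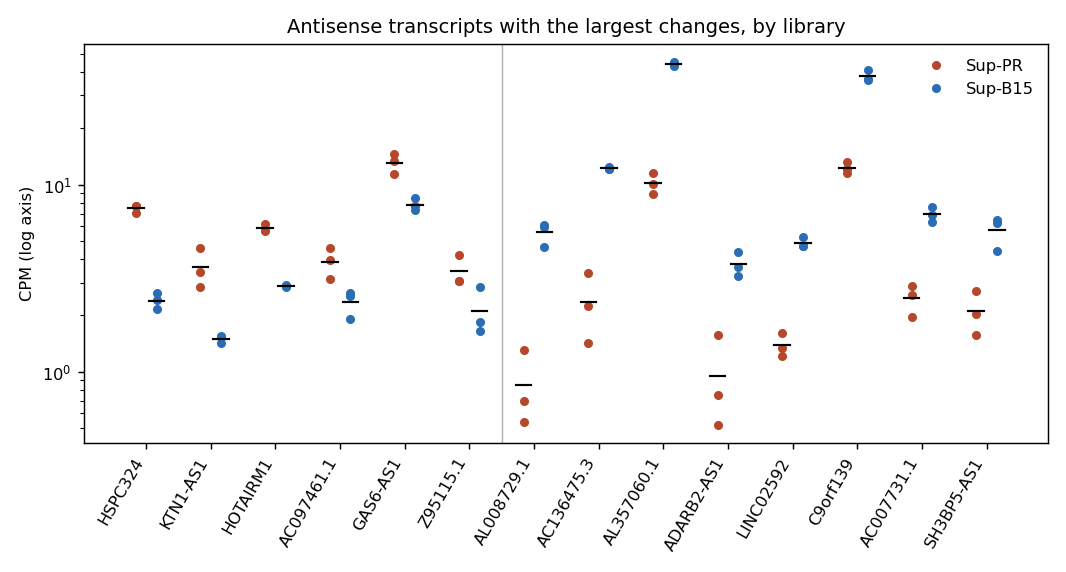
Level in CPM (log axis) of the 6 antisense transcripts called higher in Sup-PR (left of the line) and of the 8 with the largest falls among those called (right), 1 point per library and a bar at the mean of 3, Sup-PR left of Sup-B15. AL357060.1 has 8.89 to 11.5 CPM in Sup-PR and 42.9 to 45.2 CPM in Sup-B15.

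Of the 5 most abundant antisense transcripts per length, AC087627.1 and AC004687.1 were called lower. AC099850.3, FGD5-AS1 and AC005288.1 were not called. The 2 called lower fell by more than the median of the 231 (log2 fold change -0.29), though by less than the 8 largest falls. AC087627.1, with the highest mean FPKM of the 231 (61.9), averaged 48.7 ± 2.17 CPM in Sup-PR and 75.2 ± 5.06 CPM in Sup-B15 (log2 fold change -0.63, adjusted p = 2.64e-06 by edgeR), and AC004687.1 averaged 53.4 ± 11.4 CPM in Sup-PR and 103 ± 0.985 CPM in Sup-B15 (-0.95, adjusted p = 0.000186). Neither has a protein-coding partner. AC099850.3, which lies inside PRR11, a gene known from cell cycle progression, averaged 14.2 ± 1.01 CPM in Sup-PR and 16 ± 0.798 CPM in Sup-B15 (-0.17, adjusted p = 0.13). AC005288.1, at the end of MED1, the Mediator subunit that binds nuclear receptors, averaged 22.7 ± 0.8 CPM in Sup-PR and 21.2 ± 0.862 CPM in Sup-B15 (0.10, adjusted p = 0.296), and MED1 averaged 169 ± 3.46 CPM in Sup-PR and 151 ± 9.41 CPM in Sup-B15 (0.16, adjusted p = 0.0265). The fall was deepest in antisense transcripts that were faint beside their partner. The 48 under 10% of the partner's FPKM had a median log2 fold change of -0.51 with 18 called lower and 1 higher, the 96 at 10% to 100% had -0.28 with 23 lower and 1 higher, and the 55 above the partner's FPKM had -0.14 with 13 lower and 2 higher. The 32 without a partner had -0.31 with 9 lower and 2 higher. The levels of these groups differ, and the difference between them was not tested.

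The median log2 fold change of the antisense transcripts was below 0 in each arrangement of the pairs. In the head-to-head pairs 22 of 74 antisense transcripts were called lower and 3 higher (median log2 fold change -0.30), in the tail-to-tail pairs 19 of 62 lower and 1 higher (-0.35), inside the partner 10 of 48 lower and 0 higher (-0.23), and around the partner 3 of 15 lower and 0 higher (-0.20). The medians of the 4 arrangements lay between -0.35 and -0.20, against -0.01 for all genes tested. Over all genes tested, 15.4% were called lower and 7.53% higher. Whether the share called lower in any 1 arrangement differs from that was not tested, and the group around the partner is small. Beside the 0 higher calls by edgeR, 4 transcripts inside and 1 around the partner were higher at an unadjusted p under 0.05, and DESeq2 called 0 and 0. The transcripts called lower lay on many chromosomes. Chromosomes 1 and 19 held 20 and 17 of the 231, of which 5 were called lower on each. On chromosomes 6 and 22 the lower calls were 6 of 13 and 5 of 12. On chromosomes 14, 20 and 21 they were 4 of 9, 3 of 6 and 0 of 4. These groups are small, and shares of all genes by chromosome were not computed, so no chromosome is singled out.

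**Figure D3:**
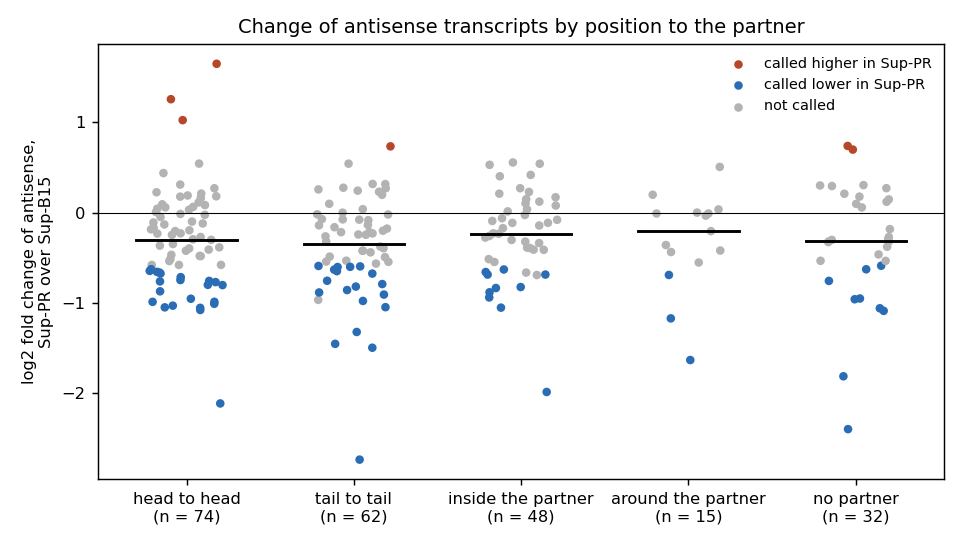
Log2 fold change of Sup-PR over Sup-B15 (vertical axis) of each of the 231 antisense transcripts, by position relative to the sense partner (horizontal axis, with the number in each group), with a bar at the median and colours for the calls. The medians are -0.30 head to head, -0.35 tail to tail, -0.23 inside the partner, -0.20 around it and -0.31 without a partner.

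The sense partners did not share the shift. The 199 pairs hold 196 different partners, and 180 of these were tested. Of the 180, 14 were called higher in Sup-PR (7.8%) and 20 lower (11.1%), where protein-coding genes tested were called higher in 7.44% and lower in 13.9%, and the median log2 fold change of the partners was 0.01. For 183 pairs both genes were tested. In 3 pairs both were called higher, in 11 both were called lower, in 3 the antisense transcript was called lower and the partner higher, and in 0 the other way round by edgeR (2 at an unadjusted p under 0.05, 0 by DESeq2). Over all 2907 pairs of overlapping opposite-strand genes in the table, 1.03% were both called higher, 4.78% both lower and 1.24% in opposite directions, and over the 1597 of these pairs that join 2 protein-coding genes, 0.814%, 2.69% and 1.31%. The most frequent outcome with a call was a lower antisense transcript beside a partner that was not called, in 36 pairs, while 9 pairs had only a lower partner, 9 only a higher partner, 1 only a higher antisense transcript and 111 neither. The log2 fold changes of the antisense transcripts and their partners had a Pearson correlation of 0.44 and a Spearman correlation of 0.44 over the 183 pairs, against 0.17 and 0.14 over the pairs of 2 protein-coding genes. These are descriptions, since the 2 sides of a pair share libraries and may share reads. In pairs without a shared exon base Pearson's correlation was 0.61 over 28 pairs, and in pairs with shared exon bases 0.40 over 155. With under 20% of the antisense exon bases in the partner's span, introns included, Pearson's correlation was 0.42 over 63 pairs. It was 0.41 over 54 pairs with 20% to 80% and 0.51 over 66 pairs with over 80%. By arrangement it was 0.58 over 73 head-to-head pairs, 0.43 over 57 tail-to-tail pairs and 0.38 over 44 pairs with the antisense transcript inside the partner.

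**Figure D4:**
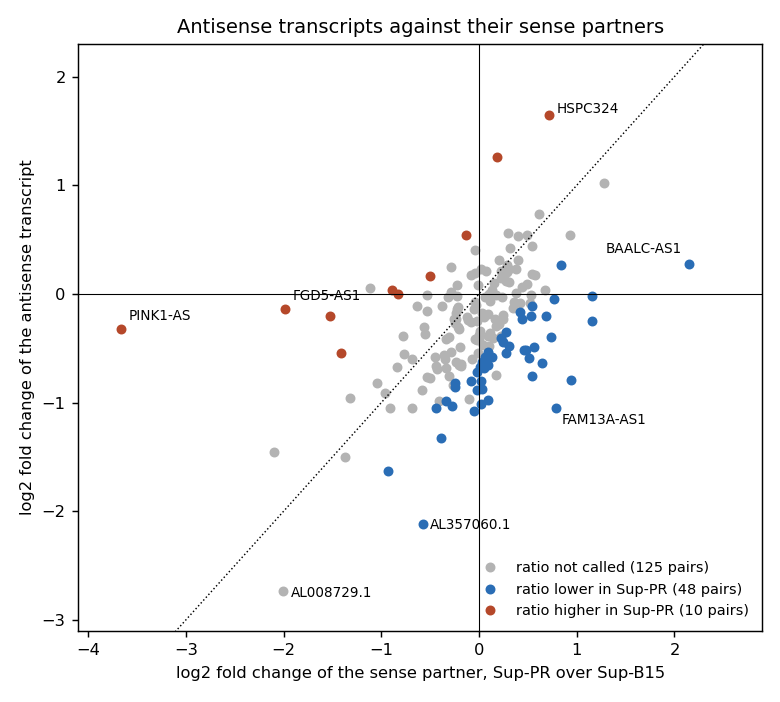
Log2 fold change of Sup-PR over Sup-B15 of the antisense transcript (vertical axis) against that of its sense partner (horizontal axis) for 183 pairs, coloured by the call on the antisense-to-sense ratio, with the dotted line marking equal change. Of the pairs, 48 had a ratio called lower in Sup-PR, 10 had one called higher and 125 were not called.

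Besides the pairs of HSPC324 and GAS6-AS1, which were higher on both strands, and those of AL008729.1, C9orf139, AC007731.1 and SH3BP5-AS1, which were lower, 7 more pairs were lower on both strands. AC025171.2 had 6.73, 5.74 and 5.06 CPM in Sup-PR against 11.9, 12.5 and 11.8 CPM in Sup-B15 (-1.05 ± 0.12, adjusted p = 8.69e-06 by edgeR), and its head-to-head partner ANXA2R, the annexin A2 receptor, had 6.68, 8.43 and 8.06 CPM in Sup-PR against 15.1, 12.8 and 16 CPM in Sup-B15 (-0.91 ± 0.12, adjusted p = 3.16e-05). AC090152.1 had 7.38, 9.65 and 9.22 CPM in Sup-PR against 15.7, 18.3 and 16.8 CPM in Sup-B15 (-0.95 ± 0.12, adjusted p = 1.06e-05), and TOX, an HMG-box protein known from T cell development, had 24.9, 26.7 and 28.8 CPM in Sup-PR against 69.7, 68 and 63.1 CPM in Sup-B15 (-1.32 ± 0.07, adjusted p = 4.86e-09). In both of these pairs neither strand overlapped between the lines. ASB16-AS1 and ASB16, whose product carries a SOCS box, changed by -0.82 and -1.04, AC026471.1 and ARMC5, an armadillo repeat protein, by -1.05 and -0.69, and CCDC183-AS1 and CCDC183 by -0.91 and -0.96. STARD4-AS1 overlaps NREP over more bases than STARD4, and STARD4-AS1 and NREP changed by -0.60 and -0.68. The call on STARD4-AS1 was lost without Sup-PR replicate 3, Sup-B15 replicate 1 or Sup-B15 replicate 2 (-0.48, -0.55 and -0.58), each below the fold limit. AC016708.1 and ABCA12, a lipid transporter known from the skin, changed by -0.67 and -0.84 at 2.38 ± 0.722 and 0.95 ± 0.152 CPM in Sup-PR and 3.84 ± 0.173 and 1.73 ± 0.655 CPM in Sup-B15. The call on AC016708.1 was lost without Sup-PR replicate 1 or 3 (-0.57, and adjusted p = 0.0648), and the call on ABCA12 without Sup-PR replicate 1 or 2 or Sup-B15 replicate 3 (adjusted p = 0.0643, 0.108 and 0.203).

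In 3 pairs, all tail to tail, the strands were called in opposite directions. FAM13A-AS1 (ENSG00000248019, chr4:88709789-88730103, plus strand) had 2.51, 1.78 and 1.25 CPM in Sup-PR against 4.58, 3.37 and 3.52 CPM in Sup-B15 (-1.05 ± 0.25, adjusted p = 0.00274 by edgeR), while FAM13A, a protein with a RhoGAP domain, had 61.2, 69.5 and 64.9 CPM in Sup-PR against 38.7, 35.2 and 39.8 CPM in Sup-B15 (0.79 ± 0.07, adjusted p = 6.12e-07). The ratio of antisense to sense changed by -1.83 ± 0.26 on the log2 scale (adjusted p = 1.2e-05 by limma). ASMTL-AS1 had 5.07, 2.74 and 1.97 CPM in Sup-PR against 6.59, 5.8 and 4.37 CPM in Sup-B15 (-0.79 ± 0.28, adjusted p = 0.03), with 1 Sup-PR library inside the range of Sup-B15. ASMTL, which resembles acetylserotonin methyltransferase, had 65.2, 66.4 and 62.7 CPM in Sup-PR against 33.7, 33.9 and 33.6 CPM in Sup-B15 (0.94 ± 0.06, adjusted p = 2.07e-08). ZNF790-AS1 had 2.16, 1.48 and 2.33 CPM in Sup-PR against 2.58, 3.01 and 3.63 CPM in Sup-B15 (-0.63 ± 0.23, adjusted p = 0.0328), and the zinc finger gene ZNF790 had 11.9, 12.6 and 10.6 CPM in Sup-PR against 6.81, 7.47 and 8.15 CPM in Sup-B15 (0.64 ± 0.12, adjusted p = 0.000373). The FAM13A pair kept both calls with any library left out. The call on ASMTL-AS1 was lost without Sup-PR replicate 2 or 3 or Sup-B15 replicate 1 or 2 (adjusted p = 0.107, 0.0973, 0.0941 and 0.0882), that on ZNF790-AS1 without Sup-PR replicate 2 or Sup-B15 replicate 2 or 3 (adjusted p = 0.132, 0.0706 and 0.101), and that on ZNF790 without Sup-PR replicate 2 or Sup-B15 replicate 1 (log2 fold changes 0.57 and 0.58). The number of opposite pairs was 1 without Sup-PR replicate 2 and 1 without Sup-B15 replicate 2.

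The change of an antisense transcript relative to its partner was tested directly on the log2 ratio of their CPM in each library with limma, adjusted over all 2907 overlapping pairs. This ratio is taken within a library, so the scaling between libraries cancels, except in the prior count of 2 added to each gene. That prior count is scaled to the library size and weighs most at low counts. Among the 183 pairs the ratio was called lower in Sup-PR in 48 and higher in 10, with a median log2 change of -0.29 and 134 of the 183 below 0. Over all 2907 pairs the ratio was called in 25.3% in either direction, and over pairs of 2 protein-coding genes in 27.7%, against 58 of 183 here. Of the 48 lower ratios, 26 had an antisense transcript that was called lower itself, 7 had only a partner called higher and 15 had neither gene called. Of the 36 pairs with a lower antisense transcript and an uncalled partner, 22 had a lower ratio by this test, and in the other 14 the ratio was not called. Of the 14 pairs called in the same direction, 12 had no call on the ratio. An exact permutation test of 3 libraries against 3 cannot give a p under 0.1. Smaller values rest on the distributions that limma and edgeR assume, and on the spread they share across genes.

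**Figure D5:**
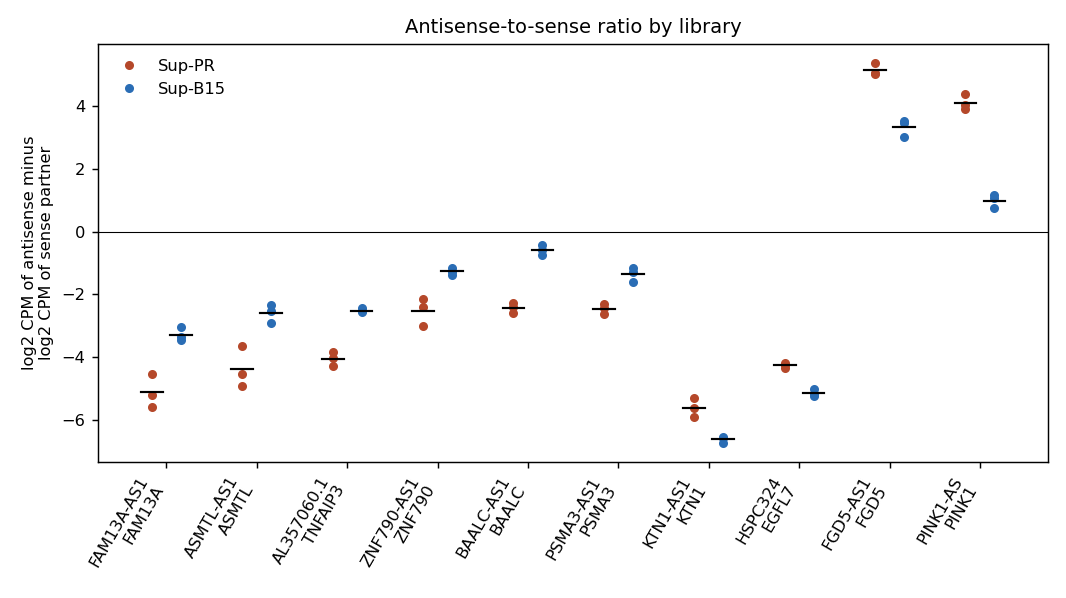
Log2 CPM of the antisense transcript minus log2 CPM of its sense partner (vertical axis) in each library for 10 pairs, with a bar at the mean of 3 and Sup-PR left of Sup-B15. The ratio is lower in Sup-PR in the 6 pairs on the left and higher in the 4 on the right, and the lines do not overlap in any of the 10.

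The pairs with the most extreme ratios included some in which the partner was called and the antisense transcript was not. The pairs of PINK1 and BAALC were chosen after their values were seen, while FGD5-AS1 is 1 of the 5 members with the highest FPKM. PINK1-AS, tail to tail with PINK1, the kinase that marks damaged mitochondria for removal, had 6.03, 8.56 and 8.87 CPM in Sup-PR against 9.45, 9.17 and 10.8 CPM in Sup-B15 (log2 fold change -0.32, adjusted p = 0.0788 by edgeR). PINK1 had 0.201, 0.478 and 0.448 CPM in Sup-PR against 4.18, 5.4 and 5.1 CPM in Sup-B15 (-3.67 ± 0.28, adjusted p = 1.49e-07). The ratio changed by 3.12 ± 0.28 (adjusted p = 2.31e-08 by limma), even though 42.9% of the exon bases of PINK1-AS lie on exons of PINK1. FGD5-AS1, the most abundant member by CPM among the pairs named here, had 136, 137 and 137 CPM in Sup-PR against 151, 148 and 152 CPM in Sup-B15 (-0.14, adjusted p = 0.0242), while FGD5, an exchange factor for CDC42 known from endothelium, had 3.16, 4.09 and 3.99 CPM in Sup-PR against 13.5, 12.7 and 18.7 CPM in Sup-B15 (-1.99 ± 0.17, adjusted p = 3.65e-07). Here the ratio changed by 1.82 ± 0.17 (adjusted p = 4.27e-08). BAALC-AS1 stood the other way, with 3.26, 2.43 and 2.73 CPM in Sup-PR against 2.12, 2.47 and 2.31 CPM in Sup-B15 (0.28, adjusted p = 0.269), beside BAALC, a gene known from immature and leukaemic blood cells, with 16.3, 15.3 and 15 CPM in Sup-PR against 3.21, 3.34 and 3.95 CPM in Sup-B15 (2.15 ± 0.12, adjusted p = 7.45e-09). The ratio of the BAALC pair changed by -1.85 ± 0.23 (adjusted p = 1.95e-06). In these 3 pairs the sense gene changed more than 3-fold and the antisense transcript was not called.

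In other pairs, also chosen after their values were seen, the antisense transcript was lower relative to a partner that was not called. PSMA3-AS1 had 16.1, 14.9 and 14.1 CPM in Sup-PR against 24.1, 23 and 20.7 CPM in Sup-B15 (-0.59 ± 0.09, adjusted p = 8.4e-05 by edgeR), and PSMA3, an alpha subunit of the proteasome, had 79.2, 81.4 and 87.2 CPM in Sup-PR against 53.8, 56.3 and 63.2 CPM in Sup-B15 (0.52 ± 0.07, adjusted p = 2.38e-05). PSMA3-AS1 fell below the fold limit without Sup-PR replicate 3, Sup-B15 replicate 1 or Sup-B15 replicate 2 (-0.56, -0.55 and -0.58), and the ratio changed by -1.10 ± 0.13 (adjusted p = 1.07e-06 by limma). CTBP1-AS averaged 2.71 ± 0.959 CPM in Sup-PR and 5.28 ± 0.808 CPM in Sup-B15, beside the corepressor gene CTBP1 with 231 ± 2.68 CPM in Sup-PR and 216 ± 4.66 CPM in Sup-B15 (ratio -1.07, adjusted p = 0.00108). GABPB1-AS1 averaged 34.1 ± 7.24 CPM in Sup-PR and 59.1 ± 11 CPM in Sup-B15, beside GABPB1, a subunit of the GA-binding protein, with 70.5 ± 2.77 CPM in Sup-PR and 69.4 ± 1.96 CPM in Sup-B15 (ratio -0.82, adjusted p = 0.00818). CTBP1 and GABPB1 were not called, while CTBP1-AS and GABPB1-AS1 were called lower. The pair FLJ46906 and NHSL1, which share only the 24 bases shown above, had a ratio lower by 0.96 in Sup-PR on the log2 scale (adjusted p = 0.00162), with FLJ46906 at 2.14 ± 0.233 CPM in Sup-PR and 3.04 ± 0.491 CPM in Sup-B15 and NHSL1 at 20.5 ± 1.57 CPM in Sup-PR and 14.8 ± 1.96 CPM in Sup-B15.

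Head-to-head antisense transcripts of 2 genes of the B-cell precursor programme, chosen after their values were seen, were called lower. AL136181.1 averaged lower in Sup-PR by 0.99 on the log2 scale (adjusted p = 0.000541 by edgeR), with 2.36, 2 and 1.84 CPM in Sup-PR against 3.72, 4.39 and 4.1 CPM in Sup-B15. Its partner DNTT, the terminal transferase that adds bases during V(D)J recombination, changed by -0.34 (adjusted p = 0.000959). AL139020.1, opposite the AKT cofactor gene TCL1A, had 3.82, 4.95 and 3.36 CPM in Sup-PR against 7.85, 7.22 and 9.15 CPM in Sup-B15 (-0.99, adjusted p = 0.000198), and TCL1A changed by -0.41 (adjusted p = 2.65e-05). Neither partner passed the fold limit. The ratio of the DNTT pair changed by -0.62 (adjusted p = 0.0326 by limma), a call that was lost without Sup-PR replicate 2 or 3 or Sup-B15 replicate 1 or 2 (adjusted p = 0.0876, 0.116, 0.0731 and 0.14). The ratio of the TCL1A pair changed by -0.58, under the fold limit, and passed it without Sup-PR replicate 2 or Sup-B15 replicate 2 (-0.72 and -0.64).

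For 3 of the head-to-head pairs with a lower ratio the promoter of the partner was taken from RefSeq, and the sequences are shown because the promoter of the partner lies near the start of an antisense transcript that was lower by more than the partner. They were picked after the values were seen, for the size of the fall of the ratio. The starts of the antisense transcript and the partner were 1045 bases apart for AL357060.1 and TNFAIP3, 776 for AL024507.2 and SEC63, and 413 for C10orf25 and ZNF22. AL024507.2 averaged 4.67 ± 0.536 CPM in Sup-PR and 9.44 ± 0.646 CPM in Sup-B15 (-1.01 ± 0.13, adjusted p = 2.48e-05 by edgeR), and SEC63, part of the protein translocation machinery of the endoplasmic reticulum, averaged 245 ± 10.3 CPM in Sup-PR and 242 ± 0.918 CPM in Sup-B15 (0.02, adjusted p = 0.79). C10orf25 averaged 5.24 ± 0.431 CPM in Sup-PR and 11.1 ± 2.63 CPM in Sup-B15 (-1.08 ± 0.16, adjusted p = 8.3e-05), and the zinc finger gene ZNF22 averaged 88.3 ± 7.88 CPM in Sup-PR and 91.4 ± 6.4 CPM in Sup-B15 (-0.05, adjusted p = 0.587). In both pairs the partner did not pass the test, and the antisense transcript was lower in every Sup-PR library than in any Sup-B15 library. The sequences run from 250 bases before to 50 after the RefSeq start of the partner on GRCh38.p14, on the strand of the partner, at chr6:137867009-137867308 for TNFAIP3 (plus), chr6:107958159-107958458 for SEC63 (minus) and chr10:45000673-45000972 for ZNF22 (plus), with motif matches in capitals.
TNFAIP3: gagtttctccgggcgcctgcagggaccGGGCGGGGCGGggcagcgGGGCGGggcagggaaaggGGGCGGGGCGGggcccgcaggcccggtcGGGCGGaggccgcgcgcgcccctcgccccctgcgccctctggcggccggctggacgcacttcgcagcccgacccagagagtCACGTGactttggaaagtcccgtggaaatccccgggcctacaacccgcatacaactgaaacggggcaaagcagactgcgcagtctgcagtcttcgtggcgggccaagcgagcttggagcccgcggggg
SEC63: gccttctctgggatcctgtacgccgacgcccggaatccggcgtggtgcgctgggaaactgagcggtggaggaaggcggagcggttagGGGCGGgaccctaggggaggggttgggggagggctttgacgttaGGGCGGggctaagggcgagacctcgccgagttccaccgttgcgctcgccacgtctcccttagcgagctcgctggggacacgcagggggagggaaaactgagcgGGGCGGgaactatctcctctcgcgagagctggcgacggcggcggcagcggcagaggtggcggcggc
ZNF22: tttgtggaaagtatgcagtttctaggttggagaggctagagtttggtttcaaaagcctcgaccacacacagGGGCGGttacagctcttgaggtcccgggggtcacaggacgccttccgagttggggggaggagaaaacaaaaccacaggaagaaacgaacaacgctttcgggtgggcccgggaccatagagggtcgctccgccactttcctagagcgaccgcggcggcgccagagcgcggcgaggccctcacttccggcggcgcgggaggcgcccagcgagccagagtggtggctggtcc
Both strands were searched for 6 motifs, and the share of 35116 RefSeq promoters of the same length that hold each is given beside it. These were the TATA box TATAAA (11.5%), the CCAAT box CCAAT (34.6%), the GC box GGGCGG (45.0%), the E-box CACGTG (7.26%), the cyclic AMP element TGACGTCA (1.85%) and AGAACA, an arm of the glucocorticoid response element (14.8%). The TNFAIP3 promoter held the GC box 6 times, where neighbouring matches share letters, and the E-box 1 time. The SEC63 promoter held the GC box 3 times and the ZNF22 promoter 1 time. The 3 promoters had 35, 34 and 25 CG pairs, above the median of 14 over all promoters, and a GC content of 73.7%, 69.7% and 62.3% against a median of 58.7%. These matches are letters in a window, and their use in these cells was not tested.

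Among well-studied antisense transcripts that were listed by name, 8 were members. ZEB1-AS1 had 4.52, 4.39 and 5.46 CPM in Sup-PR against 8.36, 8.05 and 8 CPM in Sup-B15 (-0.76 ± 0.14, adjusted p = 0.000297 by edgeR), and ZEB1, a zinc finger repressor of epithelial and lymphoid genes, had 53.7, 46.6 and 46.7 CPM in Sup-PR against 74.3, 68.9 and 69 CPM in Sup-B15 (-0.53 ± 0.07, adjusted p = 1.96e-05). ZEB1 did not pass the fold limit with all libraries and passed it without Sup-PR replicate 1 (-0.60). TRAF3IP2-AS1 averaged 5.51 ± 1.34 CPM in Sup-PR and 8.38 ± 0.456 CPM in Sup-B15 (-0.60, adjusted p = 0.00659), beside TRAF3IP2, the adaptor of the interleukin 17 receptor, at -0.35. The call on TRAF3IP2-AS1 was lost at the fold limit without Sup-PR replicate 1 or Sup-B15 replicate 3 (-0.43 and -0.56). CDKN2B-AS1 averaged 10.9 ± 0.639 CPM in Sup-PR and 7.66 ± 0.495 CPM in Sup-B15 (0.51, adjusted p = 0.00155), below the fold limit but without overlap between the lines, and its partner CDKN2B, which encodes the kinase inhibitor p15, was too low to be tested (0.0145 CPM in Sup-PR and 0.0659 CPM in Sup-B15 on average). ZFAS1, the host of small nucleolar RNAs, averaged 47.3 ± 1.33 CPM in Sup-PR and 39.6 ± 2.97 CPM in Sup-B15 (0.26, adjusted p = 0.00571). MCM3AP-AS1 and NUTM2A-AS1 averaged 6.96 ± 0.736 and 21 ± 1.42 CPM in Sup-PR against 7.33 ± 1.05 and 21.1 ± 1.68 CPM in Sup-B15 (adjusted p = 0.691 and 0.939). HOTAIRM1 and GAS6-AS1, described above, were the members of this list that were called higher.

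Genes that act on antisense RNA and on RNA with paired strands showed no common direction. The list holds 35 genes for the nuclear exosome and its adaptors, 3′ end processing, RNA editing, small RNA pathways and sensors of paired RNA, and all 35 were tested. Of these, 2 were called higher (IFIH1 and OAS3) and 3 lower, where 7.53% and 15.4% of all genes tested were. ADARB1 and DHX58 were among the 3, and the median log2 fold change of the 35 was 0.05. By adjusted p alone 11 were higher and 8 lower, where 28.0% and 27.4% of all genes were. Among the turnover genes, MTREX, the helicase that feeds nuclear RNA to the exosome, had 129, 129 and 133 CPM in Sup-PR against 94, 84.8 and 91.8 CPM in Sup-B15 (log2 fold change 0.54, adjusted p = 2.37e-06 by edgeR). The exosome nuclease DIS3 had 113, 120 and 122 CPM in Sup-PR against 79.3, 84.8 and 80.7 CPM in Sup-B15 (0.53, adjusted p = 2.58e-06), and the exosome subunit EXOSC3 changed by 0.37 (adjusted p = 0.000223). These 3 lay above Sup-B15 in every Sup-PR library and did not reach the 1.5-fold limit. RBM7 and CPSF3 were also higher by adjusted p and under the limit, at 0.32 and 0.19 (adjusted p = 0.0206 and 0.0307 by edgeR). Other members of the same machinery did not pass the test, such as EXOSC10 at 0.04 (adjusted p = 0.562), XRN2 at 0.02 (adjusted p = 0.704) and ZCCHC8 at -0.12 (adjusted p = 0.0824). ZFC3H1 of the same machinery changed by -0.33 (adjusted p = 0.0587 by edgeR), a fall that also did not pass the test. No gene of the exosome, its adaptors or 3′ end processing was lower at an adjusted p under 0.05. ADARB1, an adenosine deaminase that edits paired RNA, had 2.26, 1.91 and 1.61 CPM in Sup-PR against 18.1, 18.7 and 23.5 CPM in Sup-B15 (-3.38, adjusted p = 9.02e-10), while ADAR, the main editing enzyme of such RNA in most cells, averaged 232 CPM in Sup-PR and 225 CPM in Sup-B15 (0.05, adjusted p = 0.471). Of the sensors, IFIH1 (MDA5) averaged 15.9 CPM in Sup-PR and 9.8 CPM in Sup-B15 (0.70, adjusted p = 3.55e-05) and OAS3 34.4 CPM in Sup-PR and 21.7 CPM in Sup-B15 (0.66, adjusted p = 1.71e-05), whereas DHX58 (LGP2) averaged 5.16 CPM in Sup-PR and 9.19 CPM in Sup-B15 (-0.83, adjusted p = 6.26e-05). The part of these genes in the levels of the antisense transcripts was not tested.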

How the data were processed

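RNA sequencing covered 3 libraries each of Sup-PR and Sup-B15, mapped to their lines by their labels. The authors' reads were aligned to GRCh38.p12 by HISAT2. CASAVA and DESeq2 also stand in the submitters' processing notes, and no versions are stated. The program that counted reads, and whether it used strand, is not given in the sources used here. The authors deposited raw counts per gene, FPKM made from these counts and gene lengths, and the gene length (which equals the GENCODE release 29 exon length for 231 of 231 members). The 6 scaled and 2 mean columns and the authors' own fold changes and p-values in the same table were not used, and 0 per-sample columns were unmapped. The counts bound the precision of every value, and intervals were not computed for single libraries because each line has 3.

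Counts were filtered with filterByExpr, scaled by TMM and tested with edgeR 4.0.16 (quasi-likelihood, robust) in R 4.3.3. The antisense-to-sense ratio, on log2 CPM with a prior count of 2, was tested with limma 3.58.1 over all opposite-strand pairs. Adjustment followed Benjamini and Hochberg, and calls needed an adjusted p under 0.05 and a fold over 1.5. Partners needed an overlap of at least 1 base. Alternatives were DESeq2 1.42.0, other scaling, filters, thresholds, count limits, partners and prior count, FPKM with pseudocounts of 1 and 0.1 (FPKM at least 1 in 3 libraries, or no filter), a replicate block and each library left out. The scripts were tested on simulated data. Tables were made in Python 3.11.15 with pandas 2.3.3, and figures with matplotlib 3.10.9.

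The members, gene lists and tests were chosen with earlier results of these data known. Named genes are the 8 largest changes per direction among called members (mean count 50 or more in the higher line, no overlap between lines), the 5 with the highest FPKM, up to 8 opposite and 8 further same-direction pairs, and members of a fixed list of known antisense genes. That gave 35. Others are said to be chosen after their values were seen. RefSeq promoters matched 77 of the members by name, and sequences on chromosome 8 were not shown. Results on some genes are not reported here.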

Additional observations from a re-analysis of the deposited data

How the results depend on the processing

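Of 164 recomputed counts, 129 stayed within 1.5 times the reported one and 35 did not. Of the 35 named antisense transcripts, 28 were called. None of the 28 changed direction under the 15 other settings where fitted, and 14 kept the call in every setting that fitted them, 12 of these in all 15. The uncalled NUTM2A-AS1 and MCM3AP-AS1, both close to 0, changed sign under some settings. With adjusted p alone, 17 antisense transcripts were higher, 60 partners were higher and 54 lower, 40 pairs went the same way and 12 opposite ways, and 11 and 8 turnover genes were higher and lower. Testing against a fold of 1.5 (glmTreat) gave 3 antisense transcripts higher and 20 lower, 8 partners higher and 11 lower, 7 same-direction and 0 opposite pairs, and 0 turnover genes higher and 1 lower. On log2(FPKM + 1) there were 2 antisense transcripts higher and 23 lower, 12 partners lower, 8 same-direction and 0 opposite pairs, and 0 turnover genes higher and 1 lower. On log2(FPKM + 0.1) there were 9 same-direction pairs and 1 opposite pair, and 1 opposite pair without the FPKM filter. A limit of 100 counts gave 16 higher and 134 lower antisense transcripts, 42 same-direction and 5 opposite pairs, and a limit of 1000 counts gave 1 higher and 15 lower, 6 same-direction and 0 opposite pairs, by the number of members these limits hold. For the remaining changes the cause was not tested.

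With each library left out, 5 to 9 antisense transcripts were higher and 51 to 74 lower, 12 to 15 partners higher and 19 to 23 lower, 12 to 16 pairs went the same way and 1 to 3 opposite ways, 8 to 10 ratios were higher and 36 to 56 lower, and 2 turnover genes were higher and 3 lower throughout. The replicate numbers gave correlations of deviations of 0.13, -0.06 and 0.20, and 1 of 3 pairs correlated best with its own number, so they were not taken to pair the libraries. With the replicate block 6 antisense transcripts were higher and 66 lower, 14 partners higher and 21 lower, 14 pairs went the same way and 3 opposite ways, 12 ratios were higher and 52 lower, and 2 turnover genes were higher and 3 lower. For transcripts near the limit of 300 counts, a difference that was not called is not shown to be absent at this depth.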

Other observations

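Antisense genes under the limit of 300 counts showed the same direction. Of these 2486 genes, 567 had enough counts to be tested, and 122 were called lower in Sup-PR and 14 higher by edgeR (the median log2 fold change was -0.39). Of the protein-coding genes tested, 1645 of 11860 were called lower, and 1077 of 10385 with at least 300 counts. Protein-coding genes under the limit were thus called lower at a larger share than those above it, and than these antisense genes. The direction was therefore not particular to antisense genes at this depth. Since they passed the filter on low counts partly through the line in which they are higher, the counts describe the genes tested and not the whole group. Names were an uncertain guide to the overlapping gene. Of the 81 antisense transcripts with AS in their name and a partner, 11 had a partner by longest overlap whose name is not the one in theirs, such as STARD4-AS1 with NREP.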
